A study of Mus musculus with 6 samples.

Results

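The canonical Wnt pathway of mouse small intestinal crypts was followed through 10 genes: the ligand Wnt3, the co-activator Ctnnb1 (beta-catenin), the transcription factors Tcf7, Tcf7l2 and Lef1, the feedback genes Axin2, Nkd1 and Sp5, and the surface proteins Tnfrsf19 and Cd44. They were picked by symbol from 17526 genes in the deposited table. All 10 were found and all 10 passed the filter on low counts, as did 12943 genes in total. The study compared crypts of Fpr2f/f mice, which carry a floxed Fpr2 gene and are labelled wild type (floxed controls 1, 2 and 3), with crypts of Fpr2VKO mice, labelled as lacking Fpr2 in the intestinal epithelium (knockouts 1, 2 and 3). Fpr2 encodes a receptor for formylated peptides, and the study's title asks about its part in stem cell proliferation and differentiation. No treatment is named, and the sources used here do not give the Cre driver, strain, age, sex or any pooling of animals. Fpr2 itself was not analysed here, so the genotype could not be checked on its own transcript. The labels do not state that libraries of a group came from separate mice, so the spread that enters the tests may be technical. Values of single libraries are given in the order 1, 2 and 3 within each group.

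In the crypt, Wnt ligands bind Frizzled receptors with their LRP co-receptors, which stops the destruction complex from degrading beta-catenin. Beta-catenin then enters the nucleus, joins Tcf/Lef proteins on DNA and switches on targets, several of which damp the signal again. Paneth cells at the crypt base make Wnt3, the surrounding mesenchyme makes other Wnt ligands, and the signal keeps the stem cells at the crypt base dividing.

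Tcf/Lef proteins bind a short DNA motif, spelled here as CTTTGAA or CTTTGAT. It was searched for on both strands in windows of the 250 bases before listed RefSeq start sites (GRCm38.p6). The windows of Axin2, Nkd1 and Tcf7 lie inside the bounds of these genes, so their outermost starts were not searched. The 10 genes have 17 such windows, of which 2 held a match, or 2 of 10 genes. Among all 10385 tested genes with a window, 693 (6.67%) held one, but those genes had fewer windows per gene. By window, 5.48% of the 13238 windows of tested genes held a match, against 11.76% of the 17. Of all 32851 windows, untested genes included, 7.48% did. The windows with a match are shown, with the motif in capitals. Both belong to genes that were lower in every knockout library than in any floxed control, as 6 of the 10 were. Wnt3, Nkd1, Tcf7 and Lef1 were lower in that way too and held no match. A link between motif and level was not tested. The Sp5 window is chr2:70474673-70474922 on the plus strand, and its motif starts 104 bases before the start site.
Sp5: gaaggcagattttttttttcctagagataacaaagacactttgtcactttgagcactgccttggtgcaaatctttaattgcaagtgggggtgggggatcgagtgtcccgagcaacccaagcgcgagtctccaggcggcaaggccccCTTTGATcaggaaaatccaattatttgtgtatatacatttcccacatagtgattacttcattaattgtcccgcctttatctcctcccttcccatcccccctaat
The Tnfrsf19 window is chr14:61037988-61038237 on the minus strand, before the inner of its pair of start sites, and the motif lies on the opposite strand of the window. Exons of the gene Gm41168 cover 120 of its bases.
Tnfrsf19: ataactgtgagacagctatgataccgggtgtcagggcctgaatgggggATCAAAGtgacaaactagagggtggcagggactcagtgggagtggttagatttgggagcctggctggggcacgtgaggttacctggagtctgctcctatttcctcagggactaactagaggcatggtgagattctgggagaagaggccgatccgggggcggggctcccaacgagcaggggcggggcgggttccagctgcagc
A match is a string of letters and not a measured binding site, and the windows of the other genes lack only these letters in these bases.

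The libraries held 11108511 to 16859902 estimated counts. Epithelial markers such as Krt8 and Krt19 were abundant in every library, at 9482 to 13430 CPM (normalised counts, scaled by library size) in sum. The 8 tested markers of that list had a median log2 fold change of 0.080. The list is labelled crypt epithelial in the heat map of levels by library. Whether it tells crypt from villus cells was not tested. For T cells and intraepithelial lymphocytes, 11 of 14 listed genes could be tested, and their summed level was 295.5, 76.1 and 241.7 CPM in the controls and 68.2 to 88.4 CPM in the knockouts. The 5 testable genes of 9 on the B and plasma cell list gave 44.0, 10.5 and 29.5 CPM against 6.72 to 12.6 CPM. Floxed controls 1 and 3 thus stood apart from floxed control 2 on lymphocyte transcripts. Cd2 was listed at 0 in at least 1 library. Mesenchymal and endothelial markers were sparse: 4 of 12 could be tested, at 8.12 to 9.75 CPM in the floxed controls and 7.22 to 12.1 CPM in the knockouts in sum, and Pdgfra, Dcn, Cdh5 and Foxl1 were at 0 in at least 1 library. The 8 villus enterocyte markers summed to 5189, 2968 and 7094 CPM in the controls against 2186, 4250 and 6000 CPM in the knockouts, lowest within each group in floxed control 2 and knockout 1. Their median log2 fold change was -0.26, and 0.38 without floxed controls 1 and 3. The part of villus cell RNA in the results below was not tested. Floxed control 2 and knockout 1 were the most alike pair of libraries from different groups, with a chi-square per gene of 45.8 against at least 78.3 for other such pairs. The chi-square was taken on counts scaled to library totals, so abundant genes weigh most in it. Floxed control 2 was also less alike to floxed controls 1 and 3, at 65.3 and 83.7, than to knockout 1. Results are therefore also given without floxed controls 1 and 3, which leaves a single control library, and without floxed control 2 and knockout 1.

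Of these genes 6, namely Wnt3, Nkd1, Sp5, Tnfrsf19, Tcf7 and Lef1, were lower in each knockout library than in every floxed control. For Tcf7 and Lef1 this separation rests on the normalisation, as described below. Beta-catenin, Tcf7l2, Axin2 and Cd44 overlapped between the groups. Groups failed to overlap in that direction for 6 of the 10, against 10.3% of all genes tested. Higher without overlap were 0 of the 10 and 6.99% of all genes. By edgeR's quasi-likelihood test 6 of the 10 were lower at an unadjusted p under 0.05, where 9.63% of all genes were, 0 were higher, where 4.09% of all genes were, and 0 passed after adjustment, as 0.0155% of all genes did. DESeq2 called 3 of them lower (Wnt3, Nkd1 and Sp5, against 2.40% of all genes) and 0 higher (0.299% of all genes), and limma-voom called 0. The median log2 fold change of the 10 was -0.83, and that of all genes tested was -0.013. Without floxed controls 1 and 3 the median of the 10 was -0.23. Without floxed control 2 alone edgeR called 955 genes of the table and 5 of the 10, namely all of the 6 but Lef1. The share that the 955 make of the genes tested in that fit is not given here.

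**Figure D1:**
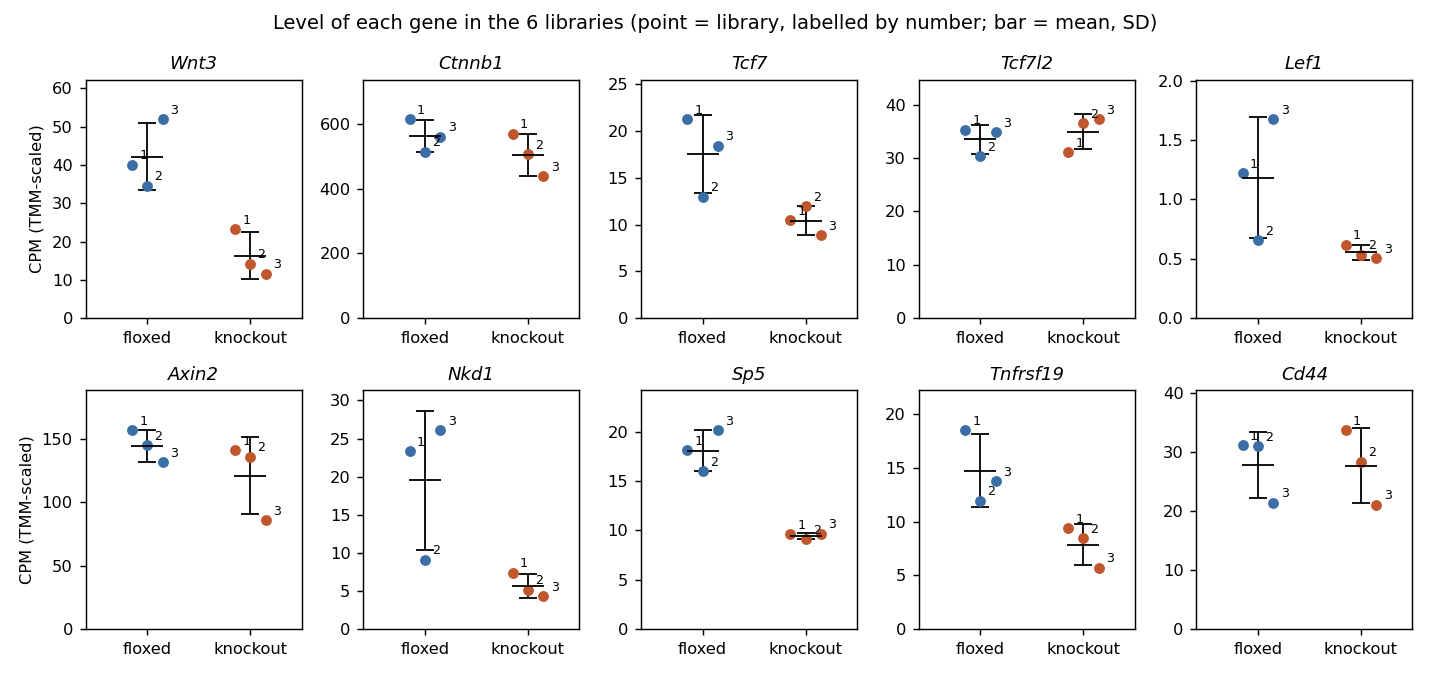
Level of each of the 10 genes in CPM (vertical axes, each from 0) in the 3 floxed controls (blue) and 3 knockouts (orange), with the library number at each point and bars for the mean and SD. Wnt3, Tcf7, Lef1, Nkd1, Sp5 and Tnfrsf19 do not overlap between the groups, while floxed control 2 is the lowest control for each of these 6.

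Wnt3 (gene 22415, chr11:103774175-103818021, plus strand) is the secreted ligand of the set. It measured 40.1, 34.6 and 51.9 CPM in the controls against 23.2, 14.2 and 11.6 CPM in the knockouts. All controls lay above all knockouts, with knockout 1 nearest to them. The means were 42.2 ± 8.83 and 16.4 ± 6.06 CPM (SD, n = 3 each), a log2 fold change of -1.37 ± 0.26 (SE), with an adjusted p of 0.0946 by edgeR and 0.000198 by DESeq2. It was -1.02 without floxed controls 1 and 3. The deposited Wnt3 values were not whole numbers in any of the 6 libraries, so part of its count was assigned by estimation. In bulk RNA, fewer cells of a type and less transcript per cell cannot be told apart.

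Wnt3 was lower together with transcripts of the cell that makes it. The 11 testable Paneth cell markers of 12, Wnt3 not among them, were lower at an unadjusted p under 0.05 without exception. edgeR and limma-voom called 0 of them after adjustment and DESeq2 called 11, and their median log2 fold change was -1.69. Their summed level was 63510 to 125000 CPM in the floxed controls and 20720 to 34030 CPM in the knockouts, most of it Lyz1 and the alpha-defensin Defa17. Wnt3 relative to the mean log2 level of these markers was -5.44, -5.54 and -5.85 in the controls against -5.31, -5.35 and -5.55 in the knockouts. These values overlapped, and the knockout mean was higher by 0.20 on the log2 scale (exact two-sided permutation p = 0.3, where 3 libraries against 3 cannot go below 0.1). A difference of Wnt3 beyond that of Paneth cell transcripts was thus not detectable in these libraries.

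**Figure D2:**
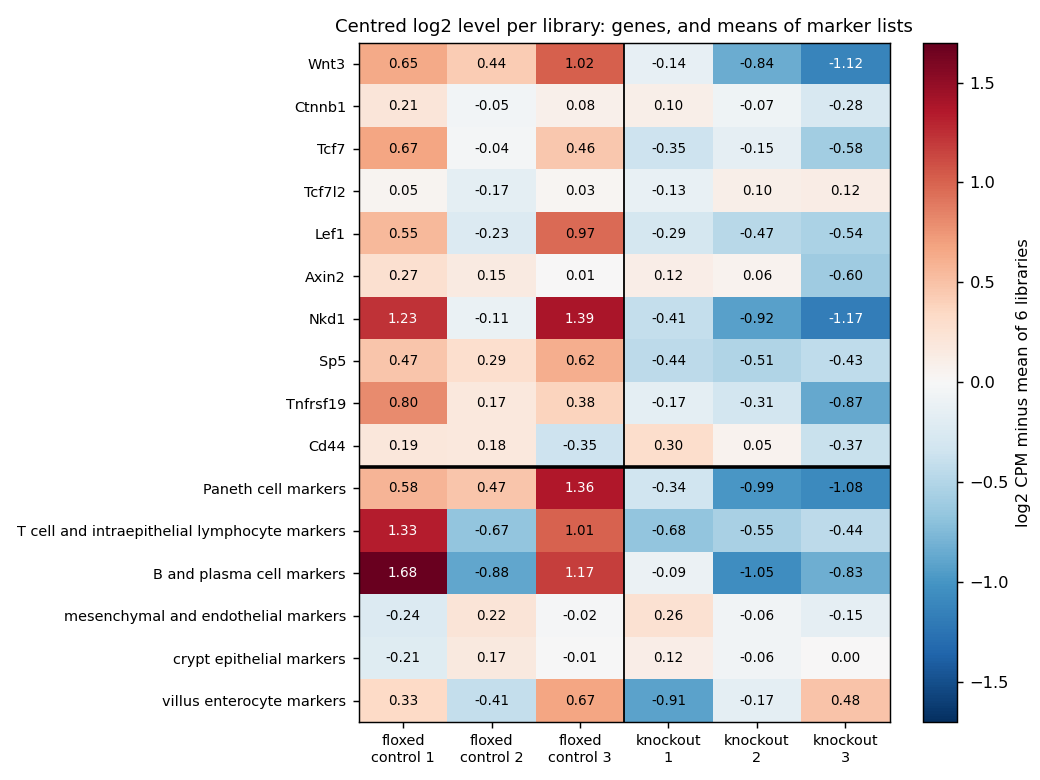
Log2 CPM of each gene, and mean log2 CPM of each marker list, in the 6 libraries after the mean of the 6 was taken off (colour and printed number; red above, blue below). Wnt3 and the Paneth cell markers both peak in floxed control 3 and are at their lowest in knockout 3. Wnt3, Tcf7, Lef1, Nkd1, Sp5 and Tnfrsf19 are higher in floxed controls 1 and 3 than in floxed control 2. So are the Paneth, T cell, B cell and villus marker lists.

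Among other genes of ligand production only Wnt9b reached an unadjusted p under 0.05. Of 20 further Wnt ligands and secretion genes 7 were high enough to test, 1 was lower at that p and 0 were called by edgeR, DESeq2 or limma-voom. Wnt9b, a ligand of low level, stood at 1.14 ± 0.034 and 0.406 ± 0.087 CPM (log2 -1.47 ± 0.41, adjusted p = 0.168 by edgeR). The ligands Wnt5a and Wnt4 had log2 fold changes of -0.81 ± 0.50 and -0.58 ± 0.64. Wls, which carries Wnt proteins to the cell surface, stood at 51.0 ± 6.21 and 51.1 ± 14.1 CPM.

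Beta-catenin and Tcf7l2 showed no difference beyond the spread of the libraries. Ctnnb1 (gene 12387, chr9:120933400-120960507) measured 614, 514 and 561 CPM in the controls against 569, 506 and 438 CPM in the knockouts. The groups overlapped (log2 -0.16 ± 0.19, adjusted p = 0.779 by edgeR). Of its merged exons 14.6% overlap those of Ulk4 on the other strand. Tcf7l2 (gene 21416, chr19:55741797-55933659), which encodes TCF4, the Tcf protein that adult crypts depend on, stood at 35.3, 30.4 and 34.9 CPM against 31.1, 36.5 and 37.2 CPM. Its libraries were intermixed, at a log2 fold change of 0.063 ± 0.16.

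The other members of that family, Tcf7 and Lef1, which T cells also express, passed after adjustment by none of the 3 tools with all libraries. Tcf7 (gene 21414, chr11:52246527-52283383), which encodes TCF1, measured 21.2, 13.0 and 18.4 CPM in the controls against 10.4, 12.0 and 8.84 CPM in the knockouts. Floxed control 2 was within about 1 CPM of knockout 2. By library totals alone it lay below knockout 2, with 197.94 of 16695304 counts against 222.79 of 16542933. Their order thus rests on the normalisation. The log2 fold change was -0.75 ± 0.22 (adjusted p = 0.191 by edgeR), and the deposited Tcf7 values were not whole in any of the 6 libraries. Lef1 (gene 16842, chr3:131110297-131224357) was near the detection limit, with 14, 10 and 17 counts against 11, 10 and 9. In CPM this was 1.22, 0.656 and 1.67 against 0.621, 0.537 and 0.504, so that floxed control 2 lay just above the knockouts. By library totals alone it lay below knockout 1, so this order rests on the normalisation too. The Lef1 log2 fold change was -1.05 ± 0.45 (adjusted p = 0.342 by edgeR), and 13.7% of its merged exons overlap an antisense gene, Gm43352. Whether reads were counted by strand is not stated.

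Tcf7 relative to Tcf7l2 differed by -0.79 on the log2 scale between the knockout and floxed means, and Lef1 relative to Tcf7l2 by -0.92. Both sets of values were separated between the groups (exact two-sided permutation p = 0.1 for each, the smallest possible, and 0.1 adjusted over the 2). With Tcf7l2 itself at a log2 fold change of 0.063, they largely restate the separation of Tcf7 and Lef1. The test thus cannot establish a difference within the family. The lymphocyte markers Gzma and Ccl5 were high in the same libraries as Tcf7 and Lef1. Gzma measured 85.4, 25.2 and 68.5 CPM in the controls against 18.6 to 26.4 CPM in the knockouts. Ccl5 stood at 56.0, 14.2 and 53.4 CPM against 12.8 to 19.3 CPM. Of the 11 tested genes of that list 10 were lower at an unadjusted p under 0.05 and 0 were separated between the groups. Without floxed controls 1 and 3 the log2 fold changes were -0.26 for Tcf7 and -0.18 for Lef1, and the median of the T cell list was 0.18. The part of lymphocyte RNA in the levels of Tcf7 and Lef1 was not tested.

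The feedback genes, all known Wnt targets, had fold changes of unlike size. Axin2 (gene 12006, chr11:108917828-108950783), the inducible scaffold of the destruction complex, measured 157.0, 145.0 and 132 CPM in the controls against 141, 136 and 85.9 CPM in the knockouts. Knockouts 1 and 2 lay within the range of the controls and knockout 3 below it. The log2 fold change was -0.26 ± 0.20 (adjusted p = 0.638 by edgeR), and -0.056 without knockout 3. An antisense gene, Gm11670, overlaps 3.8% of its merged exons. Cd44 (gene 12505, chr2:102811141-102901669), a hyaluronan receptor of crypt cells, stood at 31.1, 30.9 and 21.4 CPM against 33.7, 28.3 and 21.0 CPM. The means were 27.8 ± 5.57 and 27.7 ± 6.34 CPM (SD, n = 3), and the sign of the difference turned with the scaling.

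Nkd1 (gene 93960, chr8:88521342-88594887), which binds Dishevelled and damps the signal, had the largest log2 fold change of the 10. It measured 23.3, 9.11 and 26.1 CPM in the controls against 7.39, 5.15 and 4.31 CPM in the knockouts. Floxed control 2 lay much nearer to the knockouts than to the other controls. The log2 fold change was -1.79 ± 0.37, with an adjusted p of 0.0952 by edgeR and 0.000227 by DESeq2, and it was -0.64 without floxed controls 1 and 3. Lymphocyte markers were high in those same controls. Floxed control 2 was also the lowest control for the other genes that were lower in every knockout. The same held for the Paneth cell and villus enterocyte markers. The part of any of these cell types in the Nkd1 level was not tested.

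Sp5 (gene 64406, chr2:70474923-70477726), a zinc finger factor that acts on other Wnt targets, had knockout values that lay close together. It measured 18.2, 16.0 and 20.2 CPM in the controls against 9.59, 9.12 and 9.68 CPM in the knockouts. The groups were far apart next to their spread, at 18.1 ± 2.10 and 9.47 ± 0.302 CPM (SD, n = 3). The log2 fold change was -0.93 ± 0.18, with an adjusted p of 0.0946 by edgeR and 0.00313 by DESeq2. It was -0.70 without floxed controls 1 and 3.

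Tnfrsf19 (gene 29820, chr14:60963834-61046855) encodes TROY, a TNF receptor family member found on crypt stem cells. It measured 18.5, 11.9 and 13.8 CPM in the controls against 9.37, 8.48 and 5.71 CPM in the knockouts. All knockouts lay below all controls. The log2 fold change was -0.91 ± 0.25 (adjusted p = 0.166 by edgeR and 0.0527 by DESeq2), and -0.54 without floxed controls 1 and 3.

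Differences among these targets were examined within libraries, against Axin2. Nkd1 relative to Axin2 was -2.75, -3.97 and -2.33 on the log2 scale in the controls against -4.23, -4.69 and -4.28 in the knockouts. Tnfrsf19 relative to Axin2 was -3.08, -3.59 and -3.24 against -3.90, -3.98 and -3.88. Both were lower in all knockouts, with mean differences of -1.38 and -0.62 on the log2 scale. Sp5 relative to Axin2 overlapped, since Axin2 was low in knockout 3, and differed by -0.64. The exact two-sided permutation p was 0.1 for Nkd1 and Tnfrsf19 and 0.2 for Sp5, or 0.15, 0.15 and 0.2 adjusted over the 3, in a design that cannot go below 0.1. The test thus cannot establish a split among the targets. Without floxed controls 1 and 3 the differences were -0.43 for Nkd1, -0.33 for Tnfrsf19 and -0.46 for Sp5.

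**Figure D3:**
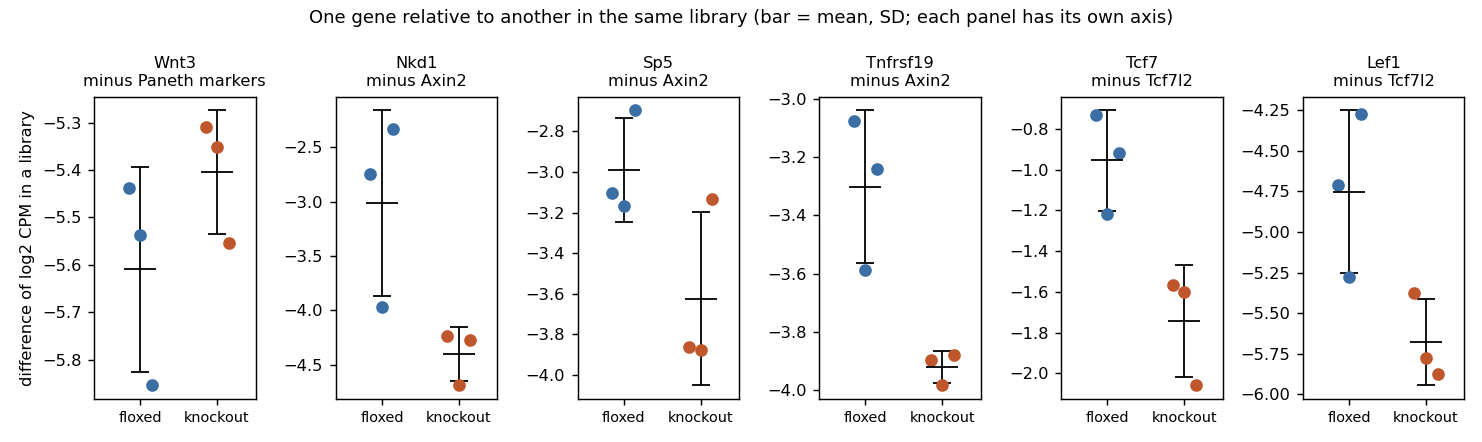
Difference of log2 CPM between a gene and its reference in the same library (vertical axes, each with its own range), for 3 floxed controls (blue) and 3 knockouts (orange), with bars for the mean and SD. Nkd1 and Tnfrsf19 minus Axin2, and Tcf7 and Lef1 minus Tcf7l2, are lower in all knockouts, while Wnt3 minus the Paneth cell markers and Sp5 minus Axin2 overlap.

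The library pairs show how much each difference depended on the libraries used, though not on single controls apart from knockouts. Between floxed control 2 and knockout 1 alone, the log2 level differed by -0.73 for Sp5, -0.58 for Wnt3, -0.30 for Nkd1 and -0.066 for Lef1. In the other 4 libraries the log2 fold changes were -1.02 for Sp5, -1.82 for Wnt3, -2.38 for Nkd1 and -1.45 for Lef1. There edgeR called 920 genes of the table, 5 of the 10 among them. The share that the 920 make of the genes tested in that fit is not given here. That pair was picked as the most alike between the groups, so leaving it out favours larger differences and more calls. Sp5 thus changed least with the libraries used, and Nkd1 and Lef1 most, among these 4.

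**Figure D4:**
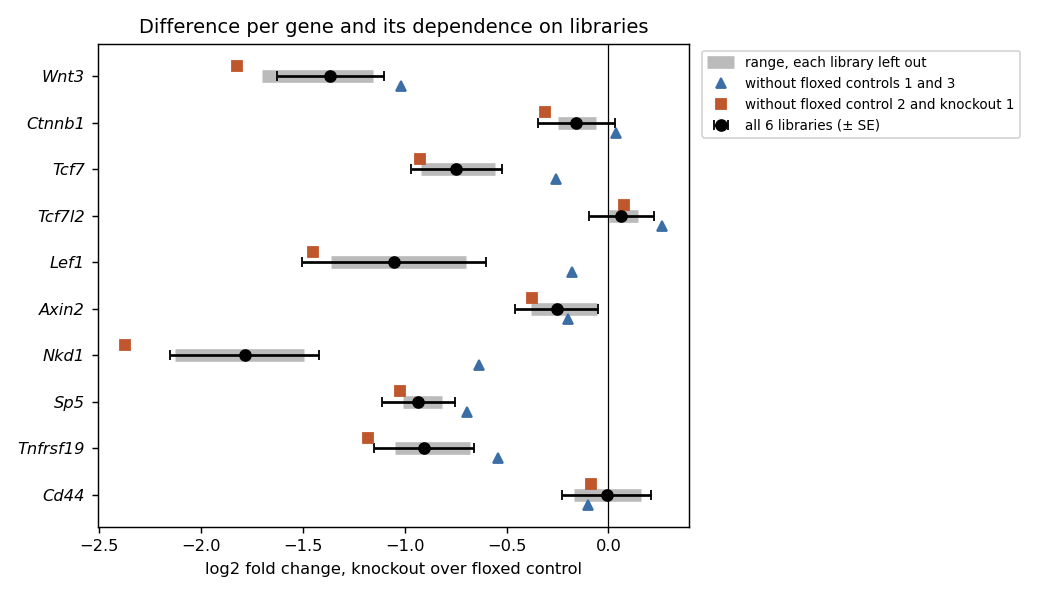
Log2 fold change of knockout over floxed control for each of the 10 genes with all libraries (black, bar for SE), the range with each library left out (grey), without floxed controls 1 and 3 (blue triangles) and without floxed control 2 and knockout 1 (orange squares). Nkd1 spans -2.38 to -0.64, whereas Sp5 stays between -1.02 and -0.70.

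Levels between genes were compared per kilobase of merged exon. In the floxed controls beta-catenin led with 108 ± 9.62 CPM per kilobase, then Axin2 with 26.2 ± 2.31 and Wnt3 with 13.7 ± 2.87 (SD, n = 3). Each of these was above the next in all libraries, as Wnt3 was above Sp5. Sp5 with 8.63 ± 0.998, Tcf7 with 6.68 ± 1.60, Nkd1 with 4.28 ± 2.00, Cd44 with 4.10 ± 0.822, Tcf7l2 with 3.82 ± 0.311 and Tnfrsf19 with 3.11 ± 0.716 each overlapped with their neighbour in the order. Lef1 was last with 0.135 ± 0.058 CPM per kilobase and lay below all others. In the knockouts Wnt3 was at 5.32 ± 1.97 CPM per kilobase, overlapped with Sp5 at 4.51 ± 0.144, and kept place 3 of 10. Nkd1 held place 6 among the floxed controls but 9 among the knockouts, there at 1.23 ± 0.350 CPM per kilobase.

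Further along the pathway, Fzd9 had the largest difference among the receptors. Of 12 Frizzled and LRP genes 11 were tested, 2 were lower at an unadjusted p under 0.05, and edgeR and limma-voom called 0. DESeq2 called 1, Fzd9, which measured 18.6, 19.0 and 27.4 CPM in the controls against 9.31, 4.45 and 4.37 CPM in the knockouts. The groups were well apart (log2 -1.84 ± 0.31, adjusted p = 0.0680 by edgeR). Fzd4 had a log2 fold change of -0.99 ± 0.41 and Fzd3 one of -0.71 ± 0.46. The receptor genes Fzd5, Lrp5 and Lrp6 had log2 fold changes of 0.14 ± 0.20, -0.24 ± 0.20 and 0.084 ± 0.18.

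Among the R-spondin module, which sets how many Frizzled receptors a cell displays, 4 of 9 genes were tested and 2 were lower at an unadjusted p under 0.05. edgeR and limma-voom called 0 and DESeq2 called 1. That gene was Lgr5, the stem cell receptor for R-spondin, which measured 97.7, 41.6 and 66.6 CPM in the controls against 35.0, 36.3 and 20.3 CPM in the knockouts. Floxed control 2 lay nearer to knockouts 1 and 2 than to the other controls, and the log2 fold change was -1.17 ± 0.31. Znrf3 and Lgr4 had -0.47 ± 0.17 and -0.41 ± 0.19. Rnf43, the partner ligase of Znrf3, had -0.11 ± 0.15. The median of the 4 was -0.44, and -0.20 without floxed controls 1 and 3.

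Secreted and surface inhibitors, several of them feedback targets themselves, had a median log2 fold change of -0.91 over 7 tested genes of 14. Of these, 5 were lower at an unadjusted p under 0.05, edgeR and limma-voom called 0, and DESeq2 called 1. That gene was Dkk3, a Dickkopf family member, which measured 5.15, 2.03 and 8.37 CPM in the controls against 1.58, 1.07 and 1.29 CPM in the knockouts. Again floxed control 2 lay closest to the knockouts. Notum, which strips the lipid from Wnt proteins, had 1.87 ± 0.381 and 0.628 ± 0.041 CPM (log2 -1.55 ± 0.37). Sfrp5 had a log2 fold change of -0.71 ± 0.21, Wif1 one of -1.84 ± 0.60 and Apcdd1 one of -0.91 ± 0.34. Without floxed controls 1 and 3 the median of this list was -0.57.

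The cytoplasmic and nuclear machinery had small median differences. All 14 destruction complex and Dishevelled genes were tested and all 14 had a negative sign, with a median of -0.15. Over all genes tested, 6722 of 12943 had a negative sign. At an unadjusted p under 0.05 there were 0 of the 14, and edgeR, DESeq2 and limma-voom called 0. Without floxed controls 1 and 3 the median of the 14 was -0.041. The scaffold gene Amer1, the tankyrase gene Tnks and Dvl2 had the smallest p, with log2 fold changes of -0.53 ± 0.25, -0.70 ± 0.35 and -0.26 ± 0.18. Of 15 nuclear co-factors and repressors 13 were tested, the median was -0.063, 1 was lower at an unadjusted p under 0.05 and 0 were called by any of the 3 tools. That gene was the beta-catenin co-activator Bcl9l (log2 -0.52 ± 0.18), followed by Bcl9 (-0.37 ± 0.21) and the co-repressor Tle3 (-0.20 ± 0.17). Without floxed controls 1 and 3 the median of the nuclear list was -0.14.

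Other Wnt targets also held genes with large and with small differences. Of 29 listed 24 were tested, 13 were lower and 0 higher at an unadjusted p under 0.05, and 14 were lower without overlap. edgeR and limma-voom called 0 and DESeq2 called 5 lower. Mmp7, a Paneth cell protease and thus also on the Paneth list, had a log2 fold change of -1.42 ± 0.28, and Bambi, a decoy receptor for BMP signals, had -1.56 ± 0.25. Prox1 and Ephb3 had -1.46 ± 0.39 and -0.86 ± 0.21. Ephb2, Myc and Ccnd1, which are textbook targets too, had -0.049 ± 0.20, 0.053 ± 0.19 and 0.065 ± 0.19. The list shares Lgr5, Rnf43, Znrf3, Notum and Apcdd1 with the lists above, and its median of -0.37 was -0.21 without floxed controls 1 and 3.

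**Figure D5:**
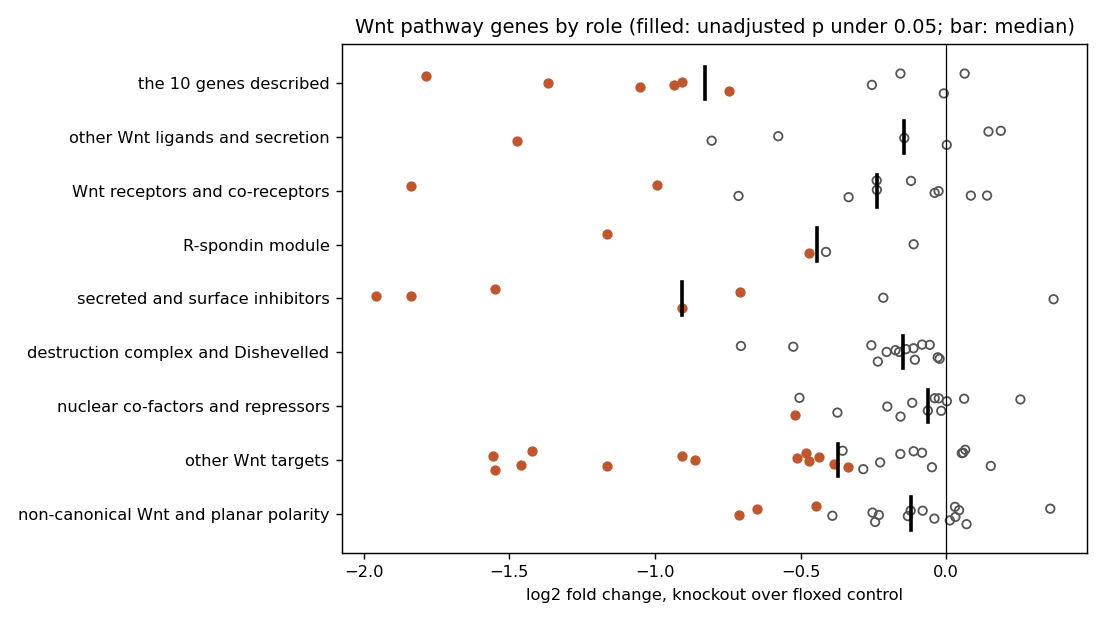
Log2 fold change of knockout over floxed control (horizontal axis) for every tested gene of each pathway list (rows; vertical scatter within a row has no meaning), with the list's median as a bar and filled points for an unadjusted p under 0.05. The secreted inhibitors have a median of -0.91, close to the -0.83 of the 10 genes described, while the destruction complex lies at -0.15 and the nuclear co-factors at -0.063.

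The genes most alike to 4 of these in their log2 level over the 6 libraries were found among 9204 genes with a mean of at least 10 CPM. For Wnt3 these were Prkd2, Spdef and C4bp, with Pearson's r of 0.998, 0.997 and 0.997. For Nkd1 they were Mtmr10, Fgfr3 and Tent5c (0.997, 0.996 and 0.994), for Sp5 Tbc1d5, Smim38 and Rbm38 (0.997, 0.997 and 0.991), and for Tnfrsf19 Ets2, Iqsec1 and Zswim8 (0.996, 0.991 and 0.991). The points share the 6 libraries and the split into groups, and these are the highest of many correlations over 6 points, so they describe likeness only. The size of the difference was not shared: Prkd2 had a log2 fold change of -0.30 and C4bp one of -1.43, against -1.37 for Wnt3.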

How the data were processed

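RNA of 6 crypt libraries, 3 per group, was read as 50 bp single-end mRNA sequencing by DNBSEQ, per the labels' protocols. The build is mm10, per the submitters' processing notes, while the sources used here name no aligner, counter or strand setting. The authors deposited estimated counts per gene without normalisation (expected counts: 31.1% to 35.2% of values per library are not whole numbers). They were rounded to whole numbers before testing.

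Of 17526 genes, 12943 passed filterByExpr. edgeR 4.0.16 (R 4.3.3) gave TMM scaling, robust quasi-likelihood fits and Benjamini-Hochberg adjusted p-values over all genes tested, with 0.05 as the threshold. The fit was tested on simulated data. CPM are TMM-scaled, and log2 CPM use a prior count of 2. Exact permutation tests ran over libraries. DESeq2 1.42.0 and limma-voom (limma 3.58.1) were alternatives among 15 settings, and DESeq2 gave no adjusted p for 251 genes. Exon lengths and overlaps came from GENCODE M21 and gene positions from RefSeq (GRCm38.p6, the assembly mm10 carries), where 17473 gene IDs matched. Python 3.11.15 drew the figures.

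The 10 genes and all gene lists were chosen with earlier results of these data known. Named genes were the 10, the 3 with the smallest p in each pathway list, the 3 most alike in pattern, and the 2 most abundant of a marker list. Wls, Fzd5, Lrp5, Lrp6, Wif1, Apcdd1, Prox1, Ephb3, Ephb2, Myc, Ccnd1, Rnf43 and Ptk7 were added after their values were seen.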

Additional observations from a re-analysis of the deposited data

How the results depend on the processing

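With DESeq2 the count of called genes over the whole table went from 2 to 342 and that of the 10 Wnt genes from 0 to 3. Leaving out low-count filtering gave 67 and 1. Scaling by DESeq2 size factors, or by TMM without the 50 most abundant genes, called 0 genes, and limma-voom called 1. Without floxed controls 1 and 3, which leaves 1 control assumed to vary like the knockouts, edgeR called 12 genes and none of the 10; 2 of the 10 were lower at an unadjusted p under 0.05, the median log2 fold change was -0.23, and Ctnnb1 turned to 0.035. Without floxed control 2 and knockout 1 it called 920 genes and 5 of the 10. Leave-one-out calls spanned 0 to 955 genes and from 0 to 5 of the 10, both highest without floxed control 2. For the fits with libraries left out, the number of genes tested is not given here. Nor is the share of all genes lower at an unadjusted p under 0.05. Whether the counts of the 10 in those fits exceed the background can thus not be told. Cd44 had positive log2 values of 0.011 with DESeq2 size factors, 0.011 with TMM without the most abundant genes, 0.011 by DESeq2's test and 0.016 without the filter, and spanned -0.17 to 0.16 when each library was left out. The cause of these differences was not tested. Wnt3, Nkd1, Sp5, Tnfrsf19, Tcf7 and Lef1 kept a negative sign in every alternative that could be computed, 15 for each and 14 for Lef1, which the 1 CPM filter removed.

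With the replicate number as a block edgeR called 39 genes and 2 of the 10 (Wnt3 and Nkd1). The labels share only numbers across groups: deviations of same-numbered libraries correlated at -0.18, -0.27 and 0.068, and 1 of 6 libraries correlated best with its own number. Lef1, with 9 to 17 counts per library, is limited by depth.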

Other observations

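Beside the beta-catenin route, Wnt ligands also act through Ror receptors and planar polarity proteins. Of 20 such genes 17 were tested, with a median log2 fold change of -0.12; 3 were lower at an unadjusted p under 0.05 and 0 were called by edgeR, DESeq2 or limma-voom. The Wnt5a receptor Ror2 measured 12.1, 11.5 and 13.0 CPM in the controls against 9.08, 6.49 and 7.72 CPM in the knockouts, so that all knockouts were below all controls, floxed control 2 included (log2 -0.65 ± 0.20, adjusted p = 0.200 by edgeR). Celsr1, a polarity cadherin, had a log2 fold change of -0.71 ± 0.27 and Dact2, which binds Dishevelled, one of -0.45 ± 0.18. Ptk7, a further co-receptor, had -0.39 ± 0.23. Without floxed controls 1 and 3 the median of the list was 0.084.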
